A study of Mus musculus with 24 samples.

Results

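The liver makes most of the proteins that circulate as coagulation and complement factors, and 36 of their genes, named by symbol, were followed here through hypothyroid mouse liver with and without an injection of thyroid hormone (T3). Each gene was represented by the brightest Affymetrix probe set annotated to its symbol alone, and 34 of the 36 could be measured, out of 18194 genes on the array. C3 and Cpb2 were not analysed here. The 34 comprised 20 coagulation genes (7 vitamin K dependent factors and anticoagulants, 6 genes of the cofactor, contact system and factor XIII group, 3 fibrinogen chains, 3 serpin inhibitors and plasminogen) and 14 complement genes (4 of the lectin pathway, 4 of the convertases and their regulators, and 6 terminal components).

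The 24 arrays formed 8 groups of 3 male mice: 4 genotypes at the thyroid hormone receptor TRβ, each given PBS or T3 and killed 6 h later. WT mice carried the wild-type receptor, KO mice lacked TRβ, GS mice carried the substitutions E125G and G126S, known to keep the receptor from binding DNA, and Y147F mice carried an exchange known to remove its signalling through PI3 kinase. All were hypothyroid, including the PBS controls, after 3 weeks of an iodine-deficient diet with methimazole and perchlorate in the water. The WT, KO and GS mice (C57BL/6J background, 8 to 9 weeks old, 0.02% methimazole, 0.5% perchlorate, 0.3% saccharin, T3 at 20 µg per 100 g) came from a first submission of 18 arrays. The 6 Y147F arrays (C57BL/6JCrl background, 10 to 11 weeks old, 0.05% methimazole, 1% perchlorate, and the same T3 dose, labelled as 200 ng per g) came from a later one, so that genotype, submission and regimen cannot be told apart wherever Y147F is set against the other genotypes. No tissue-specific driver is named for any genotype, and the other thyroid hormone receptor, TRα, was not altered in any group.

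Coagulation proceeds through vitamin K dependent serine proteases that activate one another on membranes and end in thrombin, which turns fibrinogen into fibrin. Serpins and the protein C system restrain it, and plasmin dissolves the clot. Complement is a parallel protease cascade: the lectin, classical and alternative pathways each build convertases that cleave C3 and C5, after which C5b to C9 assemble into the membrane attack complex. Hepatocytes secrete nearly all of these proteins, and several are acute phase proteins. In the liver TRβ is the main receptor through which T3 acts on transcription.

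Promoters were examined because the 3 fibrinogen genes lie together, and because F10, F12 and Mbl1 carried differences given further on. The 250 bases before the annotated start of each gene are given 5′ to 3′ from RefSeq (GRCm38.p6), with motif matches in capitals. The windows are Fga at chr3:83025903-83026152 (plus strand), Fgb at chr3:83049864-83050113 (minus strand), Fgg at chr3:83007474-83007723 (plus strand), F10 at chr8:13037058-13037307 (plus strand), F12 at chr13:55426805-55427054 (minus strand) and Mbl1 at chr14:41151206-41151455 (plus strand).
Fga: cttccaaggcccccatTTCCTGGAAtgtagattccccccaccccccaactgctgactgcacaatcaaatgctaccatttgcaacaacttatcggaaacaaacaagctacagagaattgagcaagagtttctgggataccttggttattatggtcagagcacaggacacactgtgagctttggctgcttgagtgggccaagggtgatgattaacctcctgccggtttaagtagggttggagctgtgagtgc
Fgb: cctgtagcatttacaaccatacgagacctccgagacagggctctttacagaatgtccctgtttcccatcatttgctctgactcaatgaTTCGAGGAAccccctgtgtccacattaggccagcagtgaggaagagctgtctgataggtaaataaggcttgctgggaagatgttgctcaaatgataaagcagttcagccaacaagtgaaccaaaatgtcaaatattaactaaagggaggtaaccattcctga
Fgg: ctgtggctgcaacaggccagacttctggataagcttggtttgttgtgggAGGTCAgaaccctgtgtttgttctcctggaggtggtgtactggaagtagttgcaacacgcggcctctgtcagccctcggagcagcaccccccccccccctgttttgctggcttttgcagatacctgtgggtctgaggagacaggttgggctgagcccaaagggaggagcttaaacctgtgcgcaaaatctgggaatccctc
F10: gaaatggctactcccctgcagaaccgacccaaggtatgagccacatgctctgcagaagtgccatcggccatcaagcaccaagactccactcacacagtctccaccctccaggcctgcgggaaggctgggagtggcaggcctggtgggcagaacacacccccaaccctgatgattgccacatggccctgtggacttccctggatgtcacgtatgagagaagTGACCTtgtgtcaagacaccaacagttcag
F12: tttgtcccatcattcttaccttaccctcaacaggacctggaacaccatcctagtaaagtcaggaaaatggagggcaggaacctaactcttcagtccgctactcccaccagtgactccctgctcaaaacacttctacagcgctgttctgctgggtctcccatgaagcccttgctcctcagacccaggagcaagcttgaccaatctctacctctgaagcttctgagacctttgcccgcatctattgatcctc
Mbl1: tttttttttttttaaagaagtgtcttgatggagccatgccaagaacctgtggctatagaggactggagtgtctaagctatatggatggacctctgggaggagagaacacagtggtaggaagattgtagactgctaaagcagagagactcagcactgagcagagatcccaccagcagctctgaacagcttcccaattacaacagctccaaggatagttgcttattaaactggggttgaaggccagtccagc

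Capitals in Fga and Fgb mark the STAT motif TTCNNNGAA, and in Fgg and F10 the thyroid receptor core element AGGTCA, which F10 carries on the opposite strand. No capital stands in F12 or Mbl1, which says only that the searched letters are not in these windows. Windows were found for 27 of the 34 genes, and both strands were searched. The windows printed above end where the annotated span of the gene begins, but some others lie partly or wholly within it. For Masp2 the window was 148602294 to 148602543 and the span 148594622 to 148615499. The matches counted below in F7, C6, F9 and Masp2 fall within the span, so not every match precedes the gene. The core element was present in 9 of 27 (33.3%; C6, C8b, F10, F2, F5, F7, Fgg, Mbl2 and Serpinf2) and in 15.8% of 27025 genes with windows of this length. The STAT motif was present in 6 of 27 (22.2%; C8a, F9, Fga, Fgb, Masp2 and Pros1) and in 8.13% of all genes. The direct repeat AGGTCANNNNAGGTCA, which contains the core element at both ends, was in none of the 27 and in 0.0148% of genes. These matches are descriptions of sequence, not of binding.

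Arrays had median log2 intensities of 5.88 to 6.00, with a mean correlation within groups of 0.995 to 0.996. The 8 hepatocyte markers, albumin (Alb) among them, stood at a percentile of 98.3 or above on every array. The Thrb probe set read 6.82 to 7.25 in KO and 6.38 to 7.01 in WT arrays; no source used here gives its place relative to the deleted part, so it does not check the labels. The T3 target Dio1, the deiodinase gene, rose by 6.63 ± 0.28 (SE, log2) in WT and 7.52 ± 0.28 in Y147F mice and by 1.82 ± 0.28 in KO and 2.52 ± 0.28 in GS mice, with limma adjusted p of 2.37e-12, 3.93e-13, 0.00383 and 8.51e-05. Thrsp, a lipogenic target, rose by 1.36 ± 0.25 in WT and 1.10 ± 0.25 in Y147F mice, and its difference was 0.20 ± 0.25 in KO and -0.15 ± 0.25 in GS mice. In whole liver, fewer cells of a type and less RNA per cell cannot be told apart.

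The 34 genes were among the brightest in the tissue. Single values ran from 9.57 (Pros1) to 14.72 (Fgb) against array maxima of 15.12 to 15.21, and 29 genes had a mean above the 95th percentile of their array, 12 of them above the 99th. The lowest was Pros1, the protein S gene, at the 88.9th percentile. All 34 passed the filter on dim genes. Replicates agreed closely: the within-group SD pooled over the 8 groups ranged from 0.03 to 0.37 with a median of 0.08, and 3 genes exceeded 0.2. The widest was C6, with values of 10.89, 11.91 and 11.57 in KO mice given PBS (SD 0.52, n = 3).

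The first question the design poses is whether T3 acts on these genes within 6 h. In WT liver 1 of the 34 was called, and it was lower (at a Benjamini-Hochberg adjusted p under 0.05), against 10.6% of all 14159 genes tested and 4.89% called lower. In Y147F liver it was again 1 of 34, and lower, against 11.6% called and 6.09% called lower. KO and GS mice gave 0 of 34 each, against 0.177% and 0.148%. At an unadjusted p under 0.05, limma counted 10, 5, 8 and 3 of the 34 in WT, Y147F, KO and GS mice, where all genes gave 23.2%, 24.5%, 10.4% and 7.01%. The median difference of the members was -0.05 in WT, KO and GS mice and -0.07 in Y147F mice, and the median over all genes was -0.03, -0.01, 0.00 and -0.01 in WT, KO, GS and Y147F mice. The 95% interval of the response lay inside a 1.5-fold change either way for 32 members in WT, 30 in KO, 33 in GS and 32 in Y147F mice. In WT mice the exceptions were C6 and C8b.

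**Figure D1:**
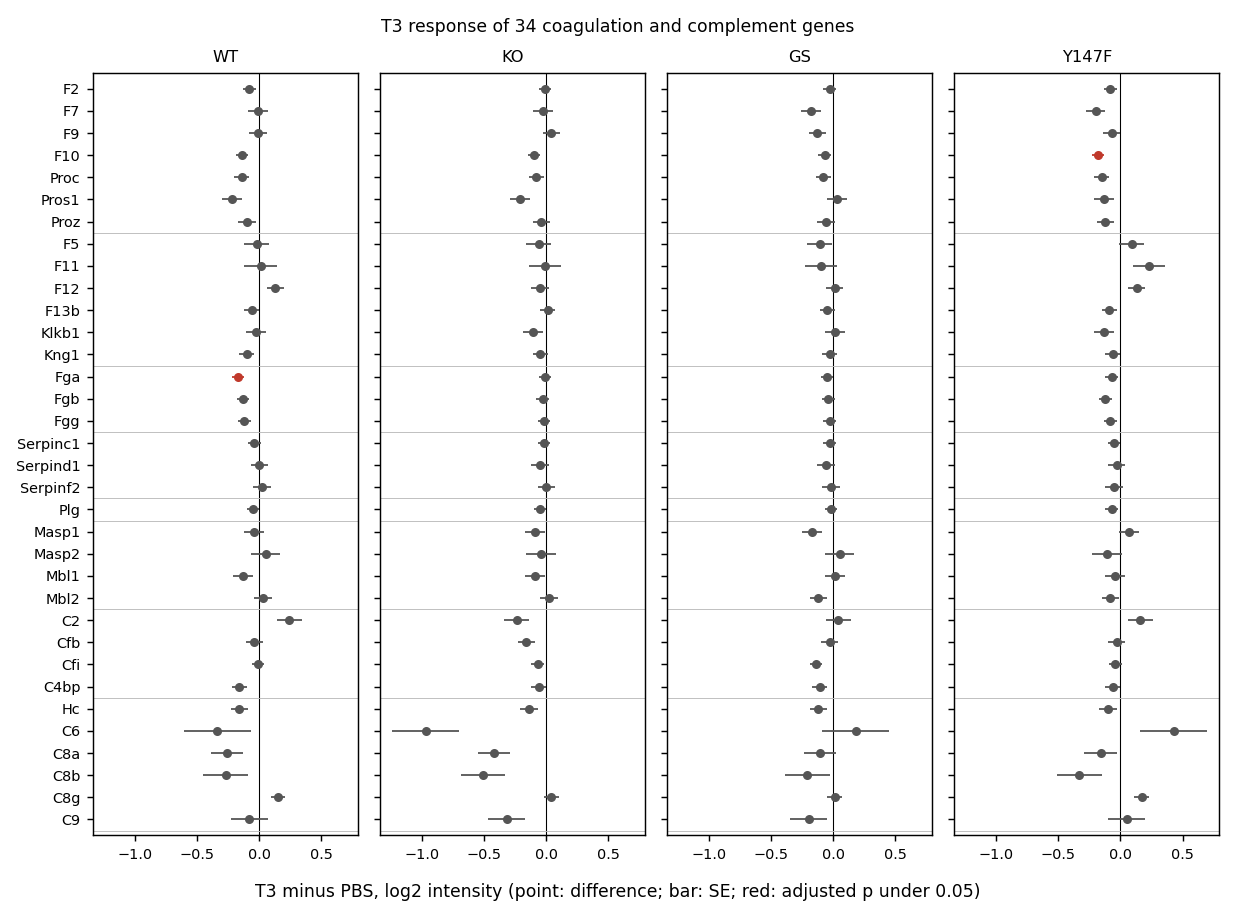
Each point is a T3 minus PBS difference in log2 intensity for 1 of the 34 genes, with its standard error, in the 4 genotypes (n = 3 arrays per group); red marks an adjusted p under 0.05. Most points lie near 0, with Fga in WT and F10 in Y147F mice in red and C6 the widest.

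Fga, Fgb and Fgg encode the 3 chains of fibrinogen, the clot-forming protein, and sit next to one another on chromosome 3 (Fga at 83026153 to 83033627, Fgb at 83042246 to 83049863, Fgg at 83007724 to 83015056). Fga (probe set 1424279_at) read 14.19, 14.21 and 14.11 in WT mice given PBS and 13.99, 13.95 and 14.04 in those given T3. All 3 arrays with hormone lay below all 3 without it. It fell by 0.17 ± 0.05 (SE) on the log2 scale, 1.13-fold, with a limma adjusted p of 0.0343. Leaving out WT T3 replicate 1 or 2, or WT PBS replicate 1 or 2, took Fga out of the calls, and so did quantile normalization, no filter on dim genes and testing only the 6 arrays compared. Fgb read 14.60, 14.64 and 14.59 without and 14.52, 14.41 and 14.52 with T3, and Fgg 14.47, 14.57 and 14.48 and 14.40, 14.34 and 14.43. Neither passed the test, with differences of -0.13 and -0.12, but their groups did not overlap either. All 3 chains had non-overlapping groups, lower with T3, where 17% of all genes were lower without overlap. In the receptor mutants Fga read 14.20, 14.29 and 14.20 without and 14.20, 14.28 and 14.18 with T3 in KO mice. All 3 chains overlapped in KO mice. GS mice gave 14.19, 14.18 and 14.19 and 14.16, 14.15 and 14.11 for Fga, with no overlap (lower on every array, as for 5.8% of all genes) but a difference of -0.05. In Y147F mice Fga read 14.17, 14.10 and 14.22 and 14.11, 14.11 and 14.07, a difference of -0.07. Fgb read 14.63, 14.62 and 14.68 and 14.50, 14.49 and 14.58 there, and Fgg 14.50, 14.50 and 14.54 and 14.45, 14.40 and 14.44. Both were lower with T3 on every array, as in WT mice (14% of all genes), with differences of -0.12 and -0.08 that did not pass the test (adjusted p 0.128 and 0.301). The difference in response between KO and WT mice was 0.16 ± 0.07 for Fga, with an adjusted p of 0.365, so that a weaker fall in KO mice was not shown.

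The vitamin K dependent group holds the proteases and cofactors that need gamma-carboxylation to bind membranes: prothrombin (F2), factors VII, IX and X, protein C (Proc), protein S (Pros1) and protein Z (Proz). All 7 had a negative T3 difference in WT mice, from -0.22 to -0.01, and all 7 in Y147F mice, from -0.20 to -0.07. In KO and GS mice 6 of 7 were negative, from -0.21 to 0.04 and from -0.18 to 0.03, so the sign was shared by all 4 genotypes for most of the group. The sign was not particular to this group: of all 34 members 26, 26, 30 and 26 were negative in WT, Y147F, KO and GS mice. Of all genes 41%, 48.7%, 46.6% and 51.7% had a positive difference in WT, Y147F, KO and GS mice. Only F10 in Y147F mice passed the test. F10, which lies on chromosome 8 at 13037308 to 13056676 between F7 and Proz, encodes the protease that generates thrombin. It read 13.25, 13.25 and 13.31 without and 13.05, 13.08 and 13.13 with T3 in Y147F mice (1449305_at), lower on every array, as were 14% of all genes. It fell by 0.18 ± 0.05 on the log2 scale (adjusted p 0.0273), and this call was lost without Y147F PBS replicate 3, without Y147F T3 replicate 1 or 2, with the mean of the gene's 3 probe sets, with only the 6 arrays compared and with the covariate for title numbers given at the end. In WT mice F10 read 13.19, 13.08 and 13.09 and 13.06, 12.96 and 12.94, which also did not overlap, with a difference of -0.14 (adjusted p 0.114). KO mice gave 13.13, 13.15 and 13.17 and 13.10, 13.04 and 13.01 and GS mice 13.26, 13.15 and 13.18 and 13.11, 13.12 and 13.14 for the same gene. The direction of F10 was thus the same in all 4 genotypes, at -0.10 in KO and -0.07 in GS mice. Pros1 had the widest WT difference of the group, -0.22 ± 0.08 with an adjusted p of 0.105.

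Among the complement genes 0 of 14 were called for T3 in any genotype (4, 7, 2 and 1 at an unadjusted p under 0.05 in WT, KO, GS and Y147F mice). The terminal components gave the widest values. C8b, the beta chain of C8, differed by -0.27, -0.51, -0.21 and -0.33 in WT, KO, GS and Y147F mice, and C8a, the alpha chain, by -0.26, -0.42, -0.11 and -0.16. C8g, the gamma chain, which belongs to another protein family (the lipocalins), differed by 0.15 in WT and 0.17 in Y147F mice, with all 3 T3 arrays above all 3 PBS arrays in both (12.5% and 12% of all genes), and by 0.04 and 0.01 in KO and GS mice. Its adjusted p was 0.157 in WT and 0.0886 in Y147F mice. C6 differed by -0.97 ± 0.27 in KO mice, 1.96-fold, with an adjusted p of 0.178 and an SD of 0.52 among the 3 KO arrays without T3.

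Response differences between genotypes ask whether a receptor change alters the hormone's effect. Of the 34 members 0 were called for KO minus WT (3.09% of all genes), 0 for GS minus WT (2.92%), 0 for Y147F minus WT (0%) and 0 for GS minus KO (0%), and limma's unadjusted p was under 0.05 for 2, 1, 0 and 1 of them (12.5%, 13.6%, 5.34% and 5.71% of all genes). The gene nearest the threshold was C2, the protease of the classical and lectin convertase. C2 read 10.50, 10.43 and 10.47 without and 10.81, 10.73 and 10.58 with T3 in WT mice, and 10.63, 10.69 and 10.56 without and 10.26, 10.56 and 10.33 with T3 in KO mice. Its WT arrays with hormone all lay above those without, and its KO arrays lay below or level with the lowest of those without, as for 12.5% (higher, WT) and 8.17% (lower, KO) of all genes. The difference between the responses was -0.48 ± 0.14 (adjusted p 0.0623), and its 3 probe sets all gave a positive value in WT and a negative one in KO mice. For KO minus WT, 1 member was called without WT T3 replicate 3, without KO T3 replicate 2 and under 3 other settings given with the processing alternatives.

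Genotype differences without hormone compare the receptor states in the hypothyroid liver itself. Of the 34 members 7 were higher in KO than in WT mice and 0 lower, against 3.76% of all genes higher, 3.11% lower and 6.87% called in either direction: Cfb, C8g, F12, Mbl1, C8b, Hc and C8a. In all, 31 of the 34 differences were positive, with a median of 0.15 against 0.00 over all genes, of which 50.6% were positive. Complement genes made up 6 of the 7: 6 of 14 were called, all 14 differences were positive and their median was 0.32. Of the coagulation genes 1 of 20 was called, with a median of 0.07. Brighter genes differed less, at a median of 0.06 for the 12 members above the 99th percentile and 0.23 for the other 22, with 1 and 6 called. The part of brightness in these differences was not tested. Without WT PBS replicate 2 the count was 4 in place of 7.

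**Figure D2:**
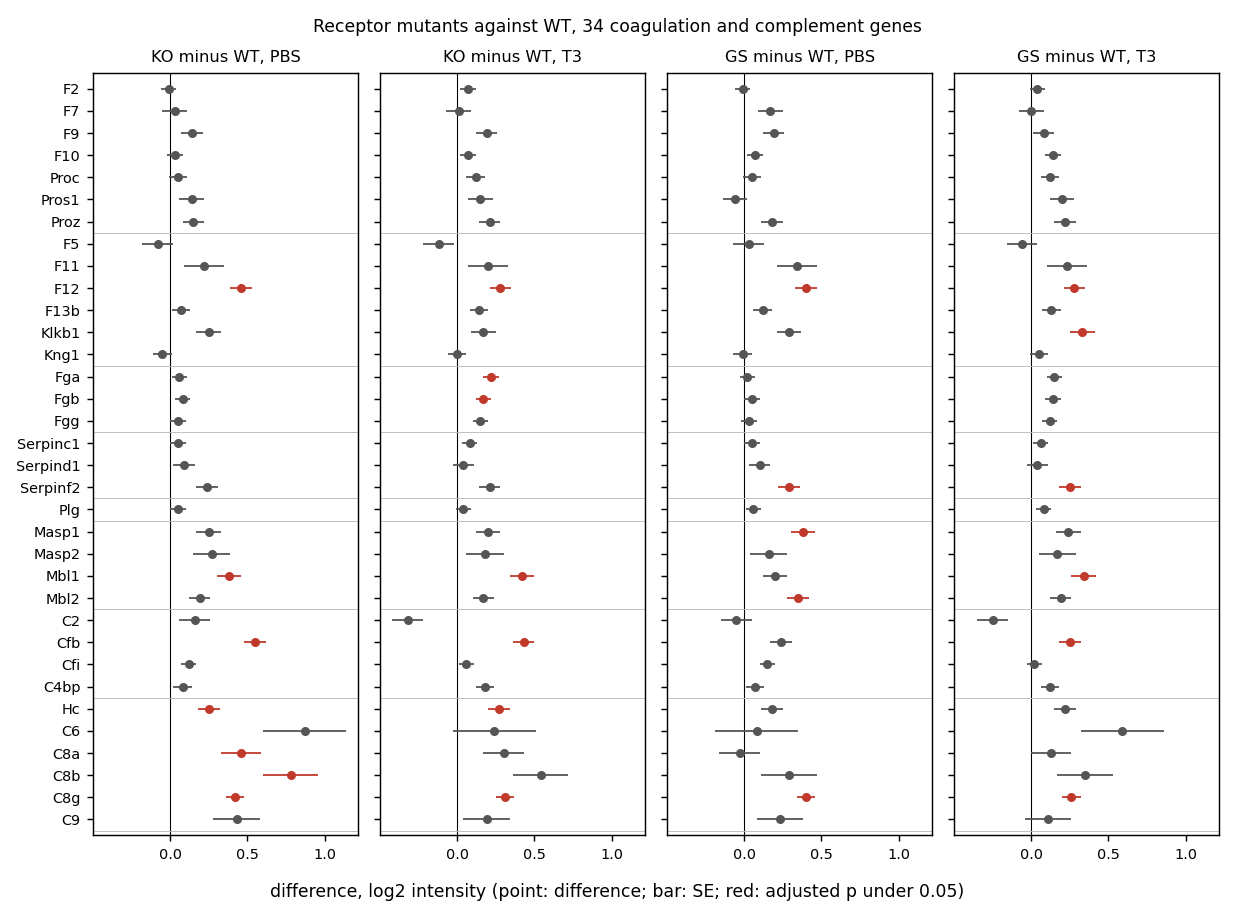
Points are differences from WT in log2 intensity with standard errors for the 34 genes, for KO and GS mice given PBS or T3 (n = 3 arrays per group), and red marks an adjusted p under 0.05. The red points all lie to the right of 0; 7, 7, 5 and 6 are red in KO with PBS, KO with T3, GS with PBS and GS with T3.

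GS minus WT without hormone gave 5 called members, all higher, against 1.97% of all genes higher and 2.95% in either direction: C8g, F12, Mbl2, Masp1 and Serpinf2. Here 29 of 34 differences were positive, with a median of 0.14 against -0.01 over all genes. By pathway 3 of 14 complement and 2 of 20 coagulation genes were called. KO and GS mice were set against the same 3 WT arrays, so the C8g and F12 calls of both are not independent of one another. Between GS and KO mice 0 members were called (0.0989% of all genes; 8 at an unadjusted p under 0.05 by limma, and 8.53% of all genes), and the nearest was Cfb at -0.31 ± 0.07 (adjusted p 0.0699). Without WT PBS replicate 2, or without GS PBS replicate 3, the GS count was 3.

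After T3 the genotype comparison rests on other arrays than without it, and it was added after the data had been seen. KO minus WT gave 7 called members, all higher (3.35% of all genes higher, 6.93% either way): Cfb, Mbl1, C8g, Fga, Hc, F12 and Fgb. Of these F12, Hc, C8g, Cfb and Mbl1 were also called without T3, which is 71.4% of each list (27% and 26.8% for all genes called without and with T3), and 30 of the 34 members were higher in KO mice in both settings, against 32.9% of all genes. GS minus WT gave 6 (3.02% higher, 5.61% either way): Mbl1, C8g, Klkb1, F12, Cfb and Serpinf2. F12, Serpinf2 and C8g were called with and without T3, 60% of the PBS list and 50% of the T3 list (28.9% and 15.2% for all genes), and 28 members were higher in both settings, against 30% of all genes. C2 went the other way after T3, at -0.32 ± 0.10 in KO (adjusted p 0.0513) and -0.25 ± 0.10 in GS mice (adjusted p 0.154). The KO count fell to 4 without WT T3 replicate 2 or KO T3 replicate 2. For GS the count was 0 without WT T3 replicate 2, 3 without WT T3 replicate 3, 2 without GS T3 replicate 1 or 2, and 1 without GS T3 replicate 3.

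**Figure D3:**
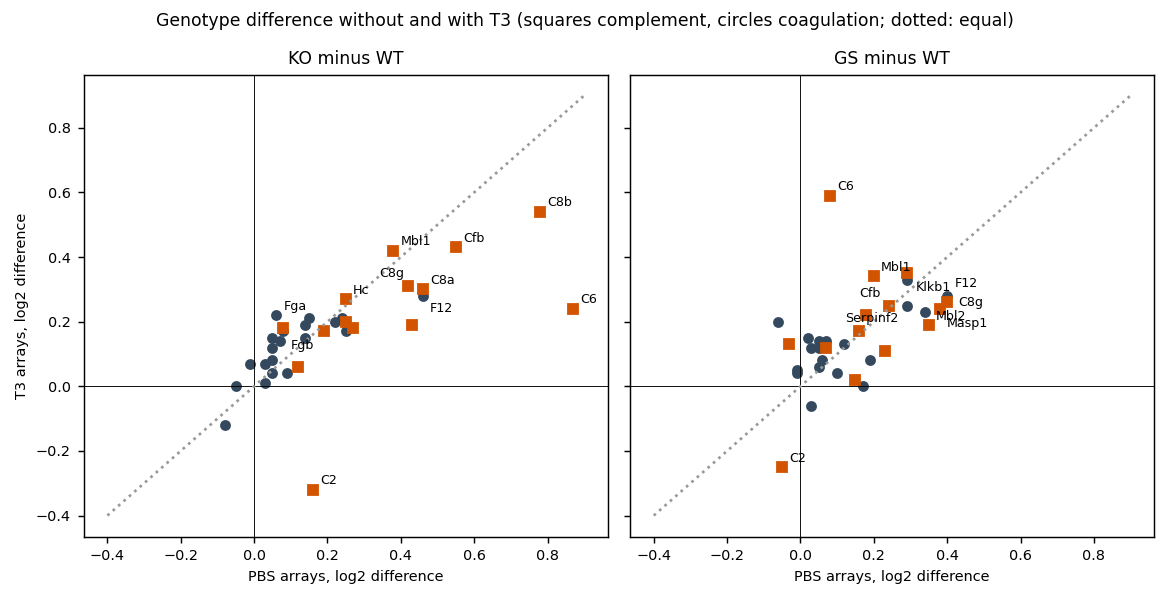
Each point is 1 of the 34 genes, placed by its difference from WT in log2 intensity on PBS arrays (horizontal) and on T3 arrays (vertical), for KO and GS mice; squares are complement genes, circles coagulation genes, and the dotted line marks equal values. In KO mice 30 points and in GS mice 28 lie above 0 on both axes, and C2 lies lowest on the vertical axis in both panels.

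C8g (1451625_a_at; chromosome 2, 25498650 to 25501777) encodes the gamma chain of C8, which joins the membrane attack complex. Without T3 it read 13.15, 13.13 and 13.21 in WT, 13.54, 13.53 and 13.69 in KO, 13.51, 13.59 and 13.58 in GS and 13.11, 13.17 and 13.15 in Y147F mice. Every KO and GS array lay above every WT and Y147F array. Against WT alone, 12.5% of all genes were above on every KO array and 10.4% on every GS array. The share for the joint order on PBS arrays was not counted. The difference from WT was 0.42 ± 0.06 in KO (adjusted p 0.000373) and 0.40 ± 0.06 in GS mice (adjusted p 0.000888). With T3 it read 13.32, 13.27 and 13.35 in WT, 13.71, 13.56 and 13.60 in KO, 13.58, 13.53 and 13.60 in GS and 13.45, 13.23 and 13.26 in Y147F mice. The separation held (14.9% and 15.4% of all genes lay above WT on every array with T3), with smaller differences of 0.31 ± 0.06 (adjusted p 0.00382) and 0.26 ± 0.06 (adjusted p 0.019). The GS call with T3 was lost without WT T3 replicate 2, without GS T3 replicate 1 or 3 and with only the arrays compared.

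F12 (1420496_at; chromosome 13, 55417958 to 55426804) encodes factor XII, the protease that starts the contact pathway. Its values without T3 were 12.43, 12.42 and 12.34 in WT, 12.82, 12.89 and 12.86 in KO, 12.81, 12.86 and 12.72 in GS and 12.53, 12.31 and 12.54 in Y147F mice. KO and GS arrays again lay above all others (against WT alone, 12.5% and 10.4% of all genes). The difference was 0.46 ± 0.07 in KO (adjusted p 0.000638) and 0.40 ± 0.07 in GS mice (adjusted p 0.00311). With T3 it read 12.66, 12.42 and 12.49 in WT, 12.71, 12.90 and 12.82 in KO, 12.76, 12.83 and 12.82 in GS and 12.55, 12.59 and 12.65 in Y147F mice. Those differences were 0.28 ± 0.07 in both mutants, with adjusted p of 0.02 in KO and 0.0274 in GS mice. Of the 6 fits that left out an array, 4 lost the KO call (WT T3 replicates 2 and 3, KO T3 replicates 2 and 3) and 4 lost the GS call (WT T3 replicates 2 and 3, GS T3 replicates 2 and 3). Both were also lost with only the arrays compared, and the KO call with the covariate for title numbers.

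Cfb (1417314_at; chromosome 17, 34856374 to 34862514, next to C2) encodes factor B, the protease of the alternative pathway convertase. In mice given PBS it read 12.32, 12.16 and 12.11 in WT, 12.80, 12.73 and 12.73 in KO, 12.46, 12.40 and 12.46 in GS and 12.33, 12.34 and 12.26 in Y147F mice. The KO values stood above the GS values (7.46% of all genes), and both above WT and Y147F (against WT alone, 12.5% of all genes for KO and 10.4% for GS). KO differed from WT by 0.55 ± 0.07, 1.47-fold, with the smallest adjusted p of any member (7.11e-05), and GS by 0.24 ± 0.07, which missed the threshold (adjusted p 0.0597). With T3 Cfb read 12.28, 12.16 and 12.04 in WT, 12.56, 12.71 and 12.49 in KO, 12.45, 12.41 and 12.37 in GS and 12.27, 12.29 and 12.28 in Y147F mice. Both mutants were then called, at 0.43 ± 0.07 (adjusted p 0.000489) and 0.25 ± 0.07 (adjusted p 0.0363). The KO calls held in all 6 fits that left out an array, with and without T3. The GS call was lost in 5 of 6 (WT T3 replicates 2 and 3, GS T3 replicates 1 to 3), without a filter, with only the arrays compared, with only the first submission and with the covariate for title numbers.

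F12, C8g and Cfb were the 3 members of 34 (8.82%) in which all 12 KO and GS arrays exceeded all 12 WT and Y147F arrays, with or without T3. Over all genes tested 44 (0.311%) were higher and 35 (0.247%) lower by this criterion, which was chosen after C8g had been seen. The Y147F arrays are of another submission and regimen, and their place beside WT in these 3 genes was set by the criterion itself. Against WT directly, Y147F mice gave 0 of 34 called without T3 (0.0848% of all genes) and 0 with T3 (0.00706%), with 8 and 0 at an unadjusted p under 0.05 (13.8% and 8.43% of all genes). Without T3 27 of the 34 differences were positive, with a median of 0.07, where 52.9% of all genes were positive. After T3 all 34 differences were 0.00 or above, up to 0.26, where 57.8% of all genes were positive.

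**Figure D4:**
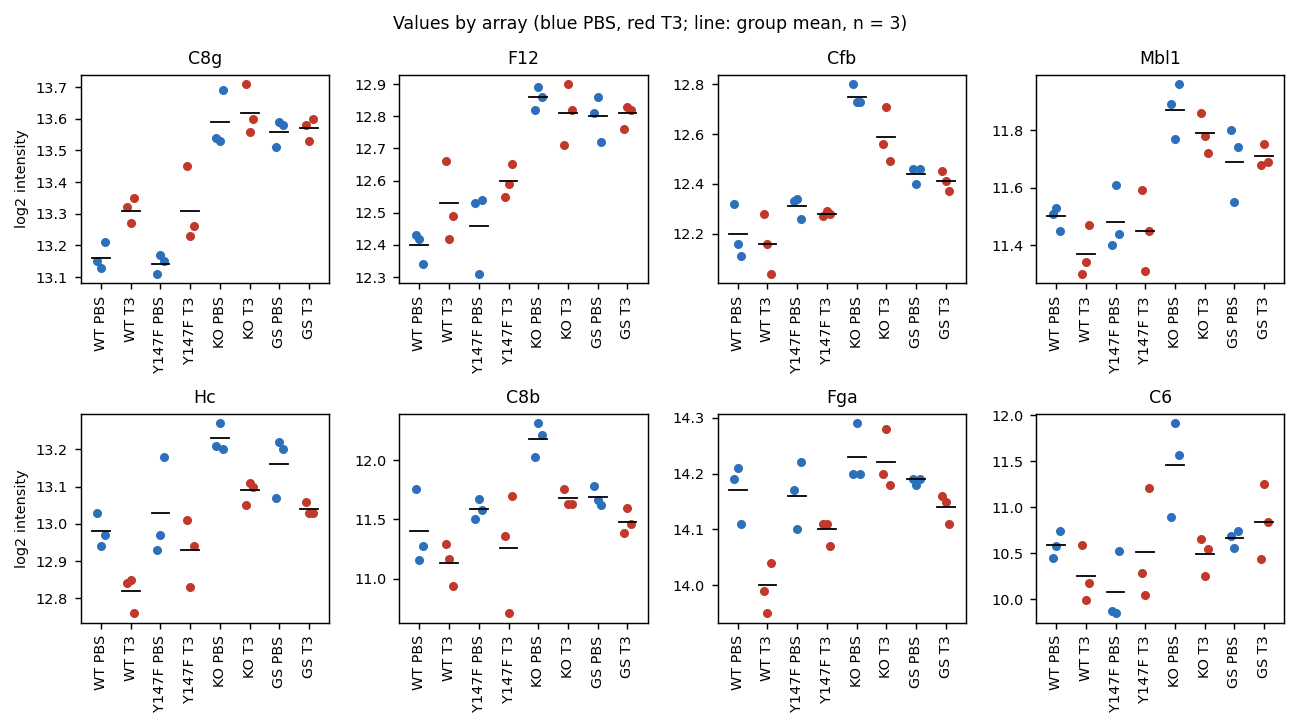
Log2 intensity on each of the 24 arrays for 8 genes, by genotype and treatment (blue PBS, red T3; the line is the mean of 3 arrays); vertical axes differ between panels and do not start at 0. In C8g, F12 and Cfb the KO and GS points all lie above the WT and Y147F points, and in Fga the 3 WT points with T3 lie below all other points.

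Mbl1 (1419578_at) encodes mannose-binding lectin A, a pattern recognition protein of the lectin pathway. It was the only member on chromosome 14 (41151456 to 41163904), which also holds Thrb (17659225 to 18040097). Without T3 it read 11.51, 11.53 and 11.45 in WT, 11.89, 11.77 and 11.96 in KO, 11.80, 11.55 and 11.74 in GS and 11.40, 11.61 and 11.44 in Y147F mice. The KO mean was the highest, at 11.87, but GS replicate 1 (11.80) lay above KO replicate 2 (11.77). Counting the arrays with and without T3, 11 of the 12 KO and GS arrays exceeded every WT and Y147F array. The share of all genes with 11 such arrays was not counted, so how common this is cannot be said. In PBS mice KO differed from WT by 0.38 ± 0.08 (adjusted p 0.00733) and GS by 0.20 ± 0.08 (adjusted p 0.251). With T3 it read 11.30, 11.34 and 11.47 in WT, 11.86, 11.78 and 11.72 in KO, 11.68, 11.75 and 11.69 in GS and 11.59, 11.31 and 11.45 in Y147F mice. Both mutants passed the test there, at 0.42 ± 0.08 (adjusted p 0.0027) and 0.34 ± 0.08 (adjusted p 0.017). The GS call was lost without WT T3 replicate 1 or 2 and without GS T3 replicate 2.

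Mbl2 (1418787_at; chromosome 19, 30232906 to 30239687) encodes mannose-binding lectin C. Its PBS arrays read 13.30, 13.16 and 13.23 in WT, 13.54, 13.26 and 13.45 in KO, 13.59, 13.57 and 13.57 in GS and 13.52, 13.51 and 13.41 in Y147F mice. GS arrays lay above all KO arrays (6.96% of all genes) and all WT arrays. The GS difference was 0.35 ± 0.07 (adjusted p 0.00461), while KO stood at 0.19 ± 0.07 (adjusted p 0.107). With T3 the values were 13.33, 13.23 and 13.23 in WT, 13.41, 13.51 and 13.38 in KO, 13.51, 13.40 and 13.46 in GS and 13.34, 13.44 and 13.40 in Y147F mice, and no difference passed the test. Y147F mice without T3 also exceeded WT on every array (10% of all genes did), by 0.25 ± 0.07 (adjusted p 0.159).

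Masp1 (chromosome 16, 23451785 to 23521240) encodes a protease that binds these lectins. Its brightest probe set, 1419677_at, read 11.08, 10.86 and 10.94 in WT, 11.16, 11.28 and 11.17 in KO, 11.37, 11.25 and 11.40 in GS and 10.92, 10.91 and 11.16 in Y147F mice without T3. GS exceeded WT by 0.38 ± 0.08 (adjusted p 0.00834). The gene's other 4 probe sets gave -0.12 to 0.08 for this contrast, and the call was lost with the mean of its probe sets, with only the arrays compared and without WT PBS replicate 2 or GS PBS replicate 3. It rests on 1 probe set. With T3 the same probe set read 10.97, 10.89 and 10.90 in WT, 10.98, 11.20 and 11.17 in KO, 11.21, 11.13 and 11.15 in GS and 11.14, 11.00 and 11.06 in Y147F mice. Masp2, the protease that cleaves C4 and C2, has 2 probe sets, which gave 0.27 and 0.56 for KO minus WT and 0.16 and -0.09 for GS minus WT without T3.

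Hc encodes C5, from which the terminal pathway starts (1419407_at; chromosome 2, 34983329 to 35068506). Without T3 it read 13.03, 12.94 and 12.97 in WT, 13.21, 13.27 and 13.20 in KO, 13.07, 13.22 and 13.20 in GS and 12.93, 12.97 and 13.18 in Y147F mice. KO exceeded WT by 0.25 ± 0.07 (adjusted p 0.0237), a call that was lost without WT PBS replicate 2 or 3 and without KO PBS replicate 2 or 3. It was also lost with quantile normalization, with only the arrays compared and with the covariate for title numbers. With T3 the values were 12.84, 12.85 and 12.76 in WT, 13.05, 13.11 and 13.10 in KO, 13.06, 13.03 and 13.03 in GS and 13.01, 12.83 and 12.94 in Y147F mice. KO again exceeded WT, by 0.27 ± 0.07 (adjusted p 0.0137), and GS by 0.22 ± 0.07 (adjusted p 0.0517). This KO call was lost without WT T3 replicate 3 or KO T3 replicate 2, with only the arrays compared and with the covariate for title numbers.

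C8a and C8b encode the chains of C8 that bind C5b to C7 and insert into the membrane. They are neighbours on chromosome 4, C8a at 104815679 to 104876487 and C8b at 104766317 to 104804548. C8b (1427472_a_at) read 11.76, 11.16 and 11.28 in WT, 12.03, 12.31 and 12.21 in KO, 11.78, 11.66 and 11.62 in GS and 11.50, 11.67 and 11.58 in Y147F mice without T3. KO exceeded WT by 0.78 ± 0.18 (adjusted p 0.00907), 1.72-fold, with a 95% interval of 0.42 to 1.15. Among the WT arrays 1 stood apart at 11.76, and the call was lost without WT PBS replicate 2 and with the covariate for title numbers. With T3 C8b read 11.29, 11.17 and 10.94 in WT, 11.76, 11.63 and 11.63 in KO, 11.39, 11.60 and 11.46 in GS and 11.36, 10.71 and 11.70 in Y147F mice. KO was above WT on every array there, as 14.9% of all genes were, by 0.54 ± 0.18 (adjusted p 0.066). C8a (1428012_at) read 13, 12.80 and 12.74 in WT, 13.29, 13.35 and 13.27 in KO, 12.94, 12.58 and 12.94 in GS and 12.79, 12.95 and 13.11 in Y147F mice without T3. KO exceeded WT by 0.46 ± 0.13 (adjusted p 0.041), and 5 of the 6 fits that left out 1 array lost this call (WT PBS replicates 2 and 3, KO PBS replicates 1 to 3). The covariate for title numbers lost it too. With T3 C8a read 12.60, 12.76 and 12.40 in WT, 12.92, 13 and 12.73 in KO, 12.55, 12.86 and 12.73 in GS and 12.80, 12.51 and 13.07 in Y147F mice. C6 and C9, of the same complex, differed by 0.87 ± 0.27 (adjusted p 0.062) and 0.43 ± 0.15 (adjusted p 0.0939) in KO mice without T3, above WT on every array as 12.5% of all genes were.

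Serpinf2, on chromosome 11 at 75431736 to 75439501, encodes alpha-2-antiplasmin, the main plasmin inhibitor. Arrays without T3 read 13.22, 13.08 and 12.89 in WT, 13.41, 13.20 and 13.29 in KO, 13.39, 13.35 and 13.31 in GS and 13.24, 13.24 and 13.33 in Y147F mice (1417498_at). GS exceeded WT by 0.29 ± 0.07 (adjusted p 0.0337), and 5 of 6 fits that left out an array lost the call (WT PBS replicates 2 and 3, GS PBS replicates 1 to 3). It was also lost with only the arrays compared and with only the first submission. With T3 it read 13.15, 13.10 and 13.01 in WT, 13.24, 13.35 and 13.30 in KO, 13.36, 13.38 and 13.27 in GS and 13.22, 13.20 and 13.25 in Y147F mice. GS stood 0.25 ± 0.07 above WT (adjusted p 0.049), and every fit that left out 1 of the 6 arrays lost that call. Quantile normalization, no filter, only the arrays compared, only the first submission and the covariate for title numbers each lost it too.

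Klkb1, on chromosome 8 at 45266688 to 45294835 beside F11, encodes plasma kallikrein, the partner of factor XII. It read 12.21, 12.08 and 12.19 in WT and 12.52, 12.47 and 12.49 in GS mice with T3, with no overlap (15.4% of all genes), and differed by 0.33 ± 0.08 (adjusted p 0.0198). This call was lost without WT T3 replicate 2 and without GS T3 replicate 1 or 3. Without T3 it read 12.19, 12.26 and 12.13 and 12.59, 12.37 and 12.48, a difference of 0.29 ± 0.08 that missed the threshold (adjusted p 0.0599). F11, whose protein factor XIIa activates, differed by 0.34 ± 0.13 (adjusted p 0.195) in GS mice without T3. Kng1, the kininogen gene of the same system, stood at -0.01 ± 0.06. The other Kng1 probe set gave 0.13 for the same contrast, and differences between these genes were not tested.

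Fibrinogen in the mutants stood close to WT without hormone: KO minus WT was between 0.05 and 0.08 and GS minus WT between 0.02 and 0.05 for the 3 chains. After T3 the KO difference was 0.22 ± 0.05 for Fga (adjusted p 0.0115) and 0.17 ± 0.05 for Fgb (adjusted p 0.0369), and 0.15 for Fgg. GS minus WT was then between 0.12 and 0.15 for the 3 chains, with 0 called. All 3 lay above WT on every GS array, as 15.4% of all genes did. Fgb read 14.52, 14.41 and 14.52 in WT and 14.66, 14.67 and 14.64 in KO mice, with no overlap (14.9% of all genes). Every fit that left out 1 array lost the Fgb call, and leaving out WT T3 replicate 2 or KO T3 replicate 2 lost the Fga call. Both calls were also lost with only the arrays compared and with the covariate for title numbers, and Fgb without a filter. The anticoagulant serpins and plasminogen were close to WT: Serpinc1 (antithrombin), Serpind1 (heparin cofactor II) and Plg differed by 0.05, 0.09 and 0.05 in KO mice without T3. None of the 7 vitamin K dependent genes was called in KO or GS mice, with or without T3, where limma's unadjusted p was under 0.05 for 1, 2, 3 and 3 of them (KO without and with T3, GS without and with T3), and for 19.4%, 20.1%, 14.1% and 18.8% of all genes.

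Related genes outside the 34 were read from lists of the same pathways. Of 19 other coagulation genes tested, 1 rose and 1 fell in WT mice given T3: F3 (tissue factor, the trigger of coagulation) by 1.32 ± 0.25, and Serpina10 (the protein Z-dependent inhibitor) by -0.36 ± 0.06. They made up 10.5% of the list, close to the 10.6% of all genes called. Both were also called in Y147F mice (10.5% of the list, 11.6% of all genes), at 1.22 ± 0.25 and -0.33 ± 0.06. In KO and GS mice neither was called, though the directions were the same. F3 differed there by 0.61 ± 0.25 and 0.65 ± 0.25, and Serpina10 by -0.19 ± 0.06 and -0.14 ± 0.06. Serpina10 was higher in KO than in WT mice without (0.23 ± 0.06) and with T3 (0.40 ± 0.06), and in GS mice with T3 (0.31 ± 0.06). That was 5.26% of the list each time, where 3.76%, 3.35% and 3.02% of all genes were called higher. Of 17 other complement genes tested, 2 were higher in KO mice without T3 (11.8%, against 3.76% of all genes), Serping1 (C1 inhibitor) by 0.24 ± 0.05 and C1ra by 0.30 ± 0.08, with a list median of 0.02. Of the 7 vitamin K cycle genes 0 were called in WT, KO or GS mice given T3 (1, 0 and 1 at an unadjusted p under 0.05 by limma), and 1 fell in Y147F mice, Aifm2 by 0.31 ± 0.09 on the log2 scale. Over all genes 10.6%, 0.177%, 0.148% and 11.6% were called for T3 in WT, KO, GS and Y147F mice.

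Of 25 acute phase genes, 4 were higher (Saa3 0.98 ± 0.25, Saa4 0.46 ± 0.10, Hpx 0.24 ± 0.05, Serpina3n 0.28 ± 0.08) and 1 lower (Hamp2 -1.21 ± 0.18) in KO mice without T3, beside the 7 members above. Of 21 transcription factors known at liver promoters, 6 were higher and 1 lower in the same contrast. Over all genes 3.76% were higher and 3.11% lower there. With T3 in WT mice 4 of the 21 rose, Stat5a by 2.02 ± 0.09 and Cebpb by 1.19 ± 0.13 among them, and 6 fell, among them Hnf4a by 0.37 ± 0.07 on the log2 scale and Nr1h4 by 0.68 ± 0.09. For T3 in WT mice 10.6% of all genes were called and 4.89% called lower.

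Markers of other liver cells were read beside the KO and GS differences. The 8 Kupffer cell markers summed to 12.60 to 12.82 (log2) in KO and 12.41 to 12.62 in WT mice without T3, with 8 of 8 differences positive and 1 called, Clec4f at 0.59 ± 0.18. In GS mice with T3 the sums ran from 12.46 to 13.26, against 12.09 to 12.52 in WT, all 8 differences were positive with a median of 0.48 (0.16 in KO mice without T3), 1 was called (Clec4f, 0.61 ± 0.18) and 5 had an unadjusted p under 0.05 by limma. The other comparisons with WT were mixed. In KO mice with T3 and in GS mice without it, 6 of the 8 were positive and 2 negative, with 0 called. Their medians were 0.18 and 0.10. The 8 hepatocyte markers summed to 17.61 to 17.66 in KO and 17.63 to 17.64 in WT mice without T3, with 0 of 8 called (1 at an unadjusted p under 0.05 by limma). In GS mice with T3 they summed to 17.59 to 17.63, against 17.61 to 17.64 in WT, and 1 of 8 was lower (Tat, the tyrosine aminotransferase gene, -0.53 ± 0.15, adjusted p 0.0424). Of the stellate cell markers 1 of 8 was lower in KO and in GS mice without T3 (Lrat, -1.15 ± 0.22 and -1.13 ± 0.22). Sinusoidal endothelial, cholangiocyte, neutrophil and platelet markers gave 0 called of 8, 4, 4 and 6 in KO mice without T3 (0, 0, 1 and 1 at an unadjusted p under 0.05 by limma). Of the marker genes 1 of 5 for cholangiocytes lay under the 25th percentile of its array, and the part of other cell types in the member differences was not tested. Numbers in the sample titles also ran with genotype, and in Y147F mice with treatment: they exceeded 100000 in all 6 KO arrays and in 1 of 6 WT arrays. They also did so in 3 of 3 Y147F arrays with PBS and 1 of 3 with T3, and in 1 of 3 GS arrays with each treatment. With a title number over 100000 as a covariate, a setting chosen after seeing the data, the KO counts were 4 without T3 (C8g, Cfb, F12 and Mbl1) and 3 with T3 (C8g, Cfb and Mbl1).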

How the data were processed

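Liver RNA (200 ng per array) was hybridised to Affymetrix arrays with 45101 probe sets. Per the submitters' processing notes the authors summarised them with RMA, and per the labels and value range the deposited values are log2 intensities. No source used here gives the version of RMA. In the 6 Y147F columns most deposited values lacked their decimal mark. One was inserted so that values fell from 3 to 16, and 820 cells (0.303%) that could be altered otherwise were set missing, none of a member. On the 18 intact columns damaged alike, 810710 values were restored, 0 wrongly, which checks only the steps.

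Probe sets with 1 symbol (34958 of 45101; 932 had several, 9211 none) were kept, the brightest per gene. Genes reaching the 40th percentile of their array in 3 or more arrays were tested (14159). In R 4.3.3 with limma 3.58.1 (lmFit, contrasts.fit, eBayes), 8 group means were fitted to all 24 arrays (16 residual and 4.28 prior degrees of freedom), with Benjamini-Hochberg adjustment over all tested genes and calls at an adjusted p under 0.05. The steps were tested on simulated data. Differences are of log2 values, fold changes are their sizes put back on the linear scale, and their precision depends on the number of arrays and the spread between them.

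Each title carries its own number, so an array was taken as 1 animal; p-values measure the spread between these samples, which may be technical. The members and lists were chosen with earlier results of these data known. By rule, members called in a planned contrast are given on every array, and others by range and count. Genotype contrasts with T3 and all direct Y147F against WT contrasts were added after seeing the data. Promoters and positions came from RefSeq tables (GRCm38.p6), matched by gene ID. Alternatives tried were quantile normalization, no filter or one at the 60th percentile, the mean of probe sets, fewer arrays, a variance trend, array weights and leaving out arrays. The C8a values of 13 are whole only because their decimals round to zeros.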

Additional observations from a re-analysis of the deposited data

How the results depend on the processing

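No member difference changed sign: of 404 values of the 27 called differences under other settings, 307 stayed called and 0 reversed. The calls of C8g, Cfb, F12 and Mbl1 (KO minus WT without T3), C8g, F12 and Mbl2 (GS minus WT without T3) and C8g, Cfb and Mbl1 (KO minus WT with T3) held in all 9 other settings and all 6 fits that left out an array. Counts of called members moved by over 1.5 times as follows, and the cause was not tested. The T3 count in WT (1) was 2 with quantile normalization (Fga not among them) or the mean of probe sets, 0 without a filter or with only the arrays compared, and 5 with a variance trend and robust moderation. In Y147F mice (1) it was 0 with the mean of probe sets or only the arrays compared, and 3 with the trend or array weights. The KO minus WT response difference (0) was 1 with the 60th-percentile filter, the trend or weights. Without T3, KO minus WT (7) was 4 with the covariate for title numbers over 100000, GS minus WT (5) was 3 with only the arrays compared and 8 with the trend, and GS minus KO (0) was 1 with the trend. With T3, KO minus WT (7) was 11 with the 60th-percentile filter, 4 with only the arrays compared, 12 with the trend, 13 with weights and 3 with the covariate, and GS minus WT (6) was 2 with only the arrays compared and 11 with the trend.

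Leaving out 1 array at a time gave 0 to 1 for T3 in WT, 0 to 2 in Y147F mice and 0 to 1 for the KO minus WT response difference. Without T3 it gave 4 to 10 for KO minus WT and 3 to 6 for GS minus WT, and with T3 4 to 7 and 0 to 4. The remaining counts were 0 in every such fit. A fit that left a group with 2 arrays shared the spread of all groups. No paired analysis was possible because the numbers in the titles differ between all samples and no label pairs mice across groups.

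The 3 arrays per group limit what can be seen: standard errors of the T3 differences had a median of 0.07 on the log2 scale, and 0.10 for response differences. Pros1 and F10 in WT mice, at -0.22 ± 0.08 and -0.14 ± 0.05 with T3, were not called, so differences of over 2 standard errors can be missed.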
